A study of Mus musculus with 72 samples.

Results

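The peroxisome is an organelle with a single membrane that shortens fatty acids the mitochondrion does not take, and the genes described here encode its assembly factors and its oxidation enzymes. The set held 35 genes of the 55573 in the count table, found by matching Ensembl gene identifiers to a list of symbols. It comprised 13 peroxins (Pex genes, which build the organelle and import its proteins), the 2 acyl-CoA transporters Abcd2 and Abcd3, and 20 enzymes of fatty acid and hydrogen peroxide metabolism. All 35 were found. One of them, Hao2 (a hydroxyacid oxidase), had 0 to 18 counts per library and was left out by the filter on low counts, so 34 were tested.

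Liver RNA came from 72 male C57BL/6 mice, adult and individually housed before sampling, 1 library per mouse. The labels give no age. WT mice carried Bmal1 fl/fl, and LKO mice carried Bmal1 fl/fl with Albumin-Cre, so that floxed Bmal1 was shared by all groups. This recombinase, driven by the albumin promoter, acts in hepatocytes on Bmal1, a core activator of the circadian clock. Its action in other liver cells was not examined here. Mice of each genotype were either specific pathogen free (SPF), with a gut microbiota, or germ free (GF), the GF line having been rederived and kept in isolators, so that housing and microbial status cannot be told apart. Livers were taken at zeitgeber times (ZT, hours after lights on) 2, 6, 10, 14, 18 and 22, with 3 mice per group and ZT and 18 per group. The comparisons addressed whether the clock, the microbiota, or both shaped hepatic expression. Levels are given as counts per 1000000 (CPM) scaled by TMM factors, and between genes as CPM per kilobase of exon.

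As background, fatty acids enter peroxisomes as CoA esters through ABC transporters. An acyl-CoA oxidase, a bifunctional enzyme and a thiolase then remove acetyl-CoA in turn, and the oxidase step makes hydrogen peroxide that catalase breaks down. Branched chains such as phytanic acid first lose a carbon by alpha-oxidation. Matrix enzymes are made in the cytosol, bound by the receptors Pex5 and Pex7, and carried through a docking and translocation complex, while Pex3, Pex16 and Pex19 place membrane proteins and Pex11 proteins elongate and divide the organelle. In rodent liver many of the enzymes are classical targets of the nuclear receptor PPARA.

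The libraries held 17369927 to 22076113 counts (median 19106726). Arntl, the gene of Bmal1, ran over the day from 0.624 to 39.8 CPM in SPF WT and from 0.331 to 40.6 CPM in GF WT livers, and lay between 7.04 and 16.5 CPM in LKO livers except SPF LKO ZT18 replicate 1 (29.2 CPM). Its count includes exons outside the deleted part and does not check the deletion. Npas2, a partner gene that rises when Bmal1 is lost, stood at 14.4 to 44.5 CPM in 34 of 36 LKO libraries. In SPF LKO ZT14 replicate 2 (as labelled) it stood at 0.219 CPM against 25.02 and 24.01 CPM in the other mice of its group and time, and in SPF LKO ZT18 replicate 1 at 1.82 CPM against 36.7 and 27.5 CPM. Nr1d1, a clock repressor, stood at 85.1 CPM in SPF WT ZT14 replicate 3 against 8.56 and 3.10 CPM, and at 9.36 CPM in GF WT ZT6 replicate 3 against 50.5 and 49.2 CPM. These 4 libraries were kept. For some of the results that rest on them, values without them are given as well.

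All 8 hepatocyte markers were detected in every group. Their summed level was 80347 to 131429 CPM in SPF WT, 43173 to 126294 CPM in SPF LKO, 112904 to 169998 CPM in GF WT and 51527 to 74393 CPM in GF LKO mice. In LKO mice 1 of the 8 was called lower and 2 higher in SPF, and 2 lower and 2 higher in GF. Of all genes 11.5% and 15.2% were called lower and 11.6% and 15.6% higher. Among the markers Alb, whose promoter drives the Cre, fell in LKO mice (log2 fold change -0.98 in SPF and -1.70 in GF). Asgr1 and Fah rose by 0.13 to 0.16 in both. Of 8 Kupffer cell markers 5 fell in SPF LKO and 4 in GF LKO mice, beside 11.5% and 15.2% of all genes called lower, with summed levels of 233 to 608 CPM in SPF WT, 219.8 to 349 CPM in SPF LKO, 192 to 373 CPM in GF WT and 149 to 324 CPM in GF LKO mice. Cholangiocyte markers summed to 33.8 to 99.4, 31.4 to 136, 27.7 to 58.8 and 45.5 to 163 CPM in the same order, and lymphocyte and neutrophil markers (Ly6g at 0 in at least 9 of 18 libraries of each group) to at most 22.9 CPM. Stellate cell markers summed to 310 to 576 CPM and sinusoidal endothelial markers to 191 to 325 CPM over all groups. Of 8 adipocyte and acinar cell markers 7 were at 0 in at least 9 of 18 libraries of each group, and the remaining Cela1 rose in all 4 comparisons between groups. The part of these shifts in the results below was not tested, and in bulk liver fewer cells of a type and less RNA per cell cannot be told apart.

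Reads of 50 bases that fit more than 1 place or gene were not counted, and 2 members are near copies of each other. The thiolase genes Acaa1a (chr9:119339676-119350299, plus strand, GRCm38) and Acaa1b (chr9:119148023-119157093, minus strand) have coding sequences of 1275 bases each, of which 1231 (96.55%) are identical in the GENCODE vM21 transcripts. They are shown because the largest enzyme changes below are theirs and the counts of one depend on how well its reads are told from the other's. Coding bases 259 to 318 differ at 11 positions, here in capitals, 5′ to 3′:
Acaa1a: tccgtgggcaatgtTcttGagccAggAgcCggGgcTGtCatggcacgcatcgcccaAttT
Acaa1b: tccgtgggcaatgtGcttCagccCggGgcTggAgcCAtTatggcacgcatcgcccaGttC
Coding bases 319 to 378 are the same in both genes and a read of 50 bases inside them could not be assigned:
Acaa1a and Acaa1b: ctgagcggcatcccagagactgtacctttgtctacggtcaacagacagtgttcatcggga
Of all windows of 50 bases in the exons, 39.6% of those of Acaa1b and 17.1% of those of Acaa1a also occurred in another gene. The share was 39.2% for Pex11g, 33.3% for Nudt19, 30.1% for Hacl1, 29.7% for Scp2 (with the pseudogene Scp2-ps2) and 25.2% for Pex14, and at most 8.2% for each of the other 28 members. The levels of these 7 genes are uncertain to that degree, since the counting also ignored strand.

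Of the 20 enzymes 14 stood above every peroxin. Per kilobase of exon, the most abundant member over the 72 livers was Phyh (phytanoyl-CoA hydroxylase, the first step of alpha-oxidation) at 1471 CPM per kilobase, followed by Cat (catalase) at 1164 and Scp2 (sterol carrier protein and thiolase) at 1011. Over the 4 groups together the most abundant peroxins, Pex16 and Pex19, stood at 35.4 and 34.5 CPM per kilobase, at ranks 16 and 17 of 35. In SPF WT mice alone Pex11a stood beside them, at 36.1 ± 8.93 (SD, n = 18) CPM per kilobase against 35.6 ± 5.37 and 34.7 ± 4.02. The median enzyme stood at 142, 123, 156 and 105 CPM per kilobase in WT then LKO mice, SPF before GF, and the median peroxin at 16.90, 16.96, 17.95 and 15.98. The summed peroxin level was 233 ± 18.4 (SD, n = 18) CPM per kilobase in SPF WT, 207 ± 16.6 in SPF LKO, 250.9 ± 17.3 in GF WT and 209 ± 12.3 in GF LKO mice. The summed enzyme level was 5203 ± 283, 4862 ± 282, 5928 ± 411 and 5354 ± 420.4 in the same order, and was set mainly by Phyh, Cat and Scp2. At the low end were Abcd2 (1.97 CPM per kilobase), Pex10 (a ubiquitin ligase of receptor recycling, 1.31) and Hao2 (0.0728).

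In SPF mice the largest decreases in LKO livers were those of the transporter Abcd2, the thiolases Acaa1b and Acaa1a, the peroxin Pex11a and the reductase Decr2. Of the 34 genes 17 differed between SPF LKO and SPF WT mice, beside 23.1% of all 13159 genes tested (edgeR quasi-likelihood test, Benjamini-Hochberg adjusted p under 0.05). LKO livers had less of 13 (11.5% of all genes) and more of 4 (11.6%). Among enzymes 8 were lower and 4 higher of 19, both transporters were lower, and 3 of 13 peroxins were lower. The median log2 fold change was -0.10 for enzymes and -0.05 for peroxins beside -0.01 for all genes, and the median absolute change was 0.21 and 0.11.

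Abcd2, a transporter of very long chain and polyunsaturated acyl-CoA (chr15:91145871-91191799), ranged from 6.46 to 39.2 CPM (median 17.02) in SPF WT and from 2.03 to 28.7 CPM (median 6.77) in SPF LKO livers. Its means at ZT2, 6, 10, 14, 18 and 22 were 19.1, 29.3, 22.7, 13.4, 18.03 and 15.2 CPM in SPF WT and 8.15, 6.86, 9.28, 8.06, 12.02 and 5.31 CPM in SPF LKO mice. The means were lower in LKO mice at all 6 times, but the groups overlapped, and the highest LKO values were those of the libraries labelled ZT18 replicate 1 (28.7 CPM) and ZT14 replicate 2 (18.4 CPM). The log2 fold change was -1.25 ± 0.27 (SE, as after each log2 fold change below; adjusted p = 0.000582, edgeR), and -1.67 without the 3 SPF libraries unlike their labels. Abcd3, the abundant transporter of branched chain and dicarboxylic acyl-CoA, fell by 0.27 on the log2 scale, from 1029 ± 150.3 to 849 ± 151 CPM (SD, n = 18). Its SPF LKO means at ZT2 to ZT22 were 904, 783, 798, 773, 956 and 876 CPM. The library labelled ZT18 replicate 1 had 1328 CPM of Abcd3, and without the 3 libraries the log2 fold change was -0.35.

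The thiolase Acaa1b ranged from 561 to 993 CPM (median 728) in SPF WT and from 248 to 939 CPM (median 379) in SPF LKO livers. At ZT2 to ZT22 its means were 656, 598, 725, 731, 815 and 870.5 CPM in SPF WT and 394, 397, 388, 482, 543 and 318 CPM in SPF LKO mice. Every SPF LKO library lay below every SPF WT library except the 2 labelled ZT14 replicate 2 (869.9 CPM) and ZT18 replicate 1 (939 CPM). The share of all genes so separated is not reported here. The log2 fold change of Acaa1b was -0.80 ± 0.13 (adjusted p = 1.69e-05, edgeR), and -1.03 without the 3 libraries. Its near copy Acaa1a ranged from 75.1 to 144 CPM (median 109) in SPF WT and from 48.6 to 143 CPM (median 60.7) in SPF LKO livers, with means over the 6 times of 106, 114, 130.5, 129, 102 and 88.5 CPM and 54.3, 65.96, 63.5, 86.6, 78.8 and 54.7 CPM. It fell by 0.72 on the log2 scale (-0.87 without the 3 libraries), and again the same 2 libraries were the highest of the SPF LKO group. The dienoyl-CoA reductase Decr2, which prepares unsaturated chains, ranged from 199 to 311 CPM (median 259) in SPF WT and from 116 to 274 CPM (median 159) in SPF LKO livers. Its means were 255, 274, 286, 271, 235 and 219 CPM and 151, 194, 187, 195, 185 and 132 CPM, and its log2 fold change was -0.56 ± 0.09 (adjusted p = 1.09e-05, edgeR). Without the 3 libraries it was -0.66.

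Another 5 enzymes were lower in SPF LKO mice: Hao1 (glycolate oxidase, log2 fold change -0.39), Hsd17b4 (D-bifunctional protein, -0.38), Ehhadh (L-bifunctional protein, -0.36), Ech1 (dienoyl-CoA isomerase, -0.34) and Nudt12 (an NADH diphosphatase, -0.15). For Ehhadh the SPF LKO means at ZT2 to ZT22 were 462, 387, 387, 339, 487 and 323 CPM. Its ZT18 replicate 1, unlike its label, had 728 CPM, and without the 3 libraries its log2 fold change was -0.41. The 4 higher enzymes were Scp2 (0.32), the branched chain oxidases Acox3 (0.26) and Acox2 (0.21), and the enoyl-CoA reductase Pecr (0.15). Each of these 4 had a higher mean in SPF LKO mice at all 6 times. Scp2 ranged from 2391 to 3524 CPM (median 2936) in SPF WT and from 2394 to 4444 CPM (median 3646) in SPF LKO livers, where the 2 libraries unlike their labels were the lowest (2394 and 2737 CPM). Amacr, Crot, Phyh, Hacl1, Nudt7, Nudt19 and Cat did not pass, with log2 fold changes from -0.13 (Cat) to 0.21 (Hacl1).

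Among peroxins, Pex11a (chr7:79735957-79743131) ranged from 74.2 to 161 CPM (median 114) in SPF WT and from 49.7 to 158 CPM (median 64.7) in SPF LKO livers. Its means at ZT2 to ZT22 were 96.4, 83.4, 127, 129.6, 144 and 109 CPM in SPF WT and 53.2, 62.8, 76.04, 99.2, 83.4 and 60.2 CPM in SPF LKO mice, lower at each time in LKO. The log2 fold change was -0.66 ± 0.13 (adjusted p = 0.000183, edgeR), and -0.85 without the 3 libraries. The membrane protein factors Pex16 (-0.17, adjusted p = 0.0438) and Pex19 (-0.17, adjusted p = 0.026) were also lower by the same test. The other 10 peroxins, including both import receptors, the docking proteins and both ubiquitin ligases, had log2 fold changes from -0.19 (Pex26) to 0.12 (Pex10) and did not pass. Without the 3 libraries Pex5 passed as well (-0.15). Of the 17 genes called, 9 were called under every alternative run, namely Pex11a, Abcd2, Hsd17b4, Acaa1a, Acaa1b, Scp2, Decr2, Ech1 and Hao1.

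In GF mice the largest decreases in LKO livers were those of Abcd2, Acaa1b, Pex11a, Acaa1a and Ehhadh. Of the 34 genes 21 differed between GF LKO and GF WT mice, 61.8% beside 30.8% of all 12662 genes tested (edgeR), with 18 lower in LKO livers (15.2% of all genes) and 3 higher (15.6%). Among enzymes 10 were lower and 3 higher of 19, both transporters were lower, and 6 of 13 peroxins were lower. Median log2 fold changes were -0.17 for enzymes and -0.12 for peroxins beside 0.01 for all genes, with median absolute changes of 0.26 and 0.14. Of the 13 peroxins 12 had a fold change below 0, the exception being Pex11g (0.14, adjusted p = 0.0518, edgeR).

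Abcd2 ranged from 5.19 to 44.4 CPM (median 11.7) in GF WT and from 0.843 to 6.47 CPM (median 2.96) in GF LKO livers. The means at ZT2 to ZT22 were 9.89, 30.2, 26.98, 8.87, 6.65 and 13.02 CPM in GF WT and 1.83, 3.17, 5.098, 4.54, 2.82 and 1.23 CPM in GF LKO mice, with no overlap of the 3 mice of each genotype at 5 of 6 times. The share of all genes so separated is not reported here. The log2 fold change of Abcd2 was -2.35 ± 0.31 (adjusted p = 8.35e-08, edgeR), and -2.19 without GF WT ZT6 replicate 3, its highest library. Abcd3 ranged from 895 to 1731 CPM (median 1164) in GF WT and from 653 to 993 CPM (median 791) in GF LKO livers and changed by -0.58 ± 0.08 on the log2 scale.

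Acaa1b ranged from 476 to 1197 CPM (median 750.5) in GF WT and from 159.7 to 326 CPM (median 231) in GF LKO livers, so that the groups did not overlap. Its means over the 6 times were 649, 824, 616, 651, 984 and 858 CPM and 265, 234, 227, 192, 243 and 246 CPM, a log2 fold change of -1.70 ± 0.11 (adjusted p = 1.03e-15, edgeR). Acaa1a ranged from 87.4 to 171 CPM (median 140.2) in GF WT and from 50.6 to 72.2 CPM (median 61.7) in GF LKO livers. Hsd17b4 ranged from 415 to 648 CPM (median 515) and from 276 to 394 CPM (median 344) in the same groups, and both genes were likewise separated over all 36 livers. The share of all genes separated in this way is not reported here. For Acaa1a the means were 95.05, 134, 155, 152, 141 and 104 CPM in GF WT and 55.6, 61.3, 65.6, 67.2, 70.2 and 55.3 CPM in GF LKO mice, and the log2 fold change was -1.05 ± 0.08. Ehhadh (chr16:21761287-21787807) ranged from 404 to 1018 CPM (median 628) in GF WT and from 227 to 467 CPM (median 315) in GF LKO livers. Its means were 595, 531, 475, 609.9, 853 and 749.6 CPM and 369, 323, 328, 305, 297 and 333 CPM, and its log2 fold change was -0.96 ± 0.10 (adjusted p = 1.74e-10, edgeR). The genotype means lay furthest apart at ZT18, when GF WT mice had 743, 1018 and 797 CPM and GF LKO mice 296, 315 and 280.3 CPM.

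The remaining enzymes that fell were Decr2 (-0.74), Ech1 (-0.51), Cat (-0.27), Nudt12 (-0.26), Hao1 (-0.25) and Phyh (-0.17). Scp2 (0.49), Acox3 (0.30) and Pecr (0.16) were higher, each with a higher mean at all 6 times. Scp2 ranged from 2514 to 3933 CPM (median 3093) in GF WT and from 3589.8 to 5296 CPM (median 4379) in GF LKO livers. Among peroxins Pex11a ranged from 69.5 to 205 CPM (median 92.6) in GF WT and from 35.9 to 85.3 CPM (median 48.04) in GF LKO livers, where its means were 71.6, 126, 97.5, 128, 128 and 86.7 CPM and 44.4, 47.3, 68.8, 61.1, 40.9 and 42.6 CPM. Its log2 fold change was -1.06 ± 0.13 (adjusted p = 1.02e-08, edgeR), and -0.98 without GF WT ZT6 replicate 3, which held the highest value. The other peroxins that fell were Pex26 (-0.45), the membrane anchor of the ATPase that extracts Pex5, Pex16 (-0.30), Pex19 (-0.28), the receptor Pex5 (-0.20) and the ATPase Pex6 (-0.18). Under every alternative 16 of the 21 calls held. Those that did not were Pex5, Pex6, Pex26, Acox3 and Phyh.

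**Figure D1:**
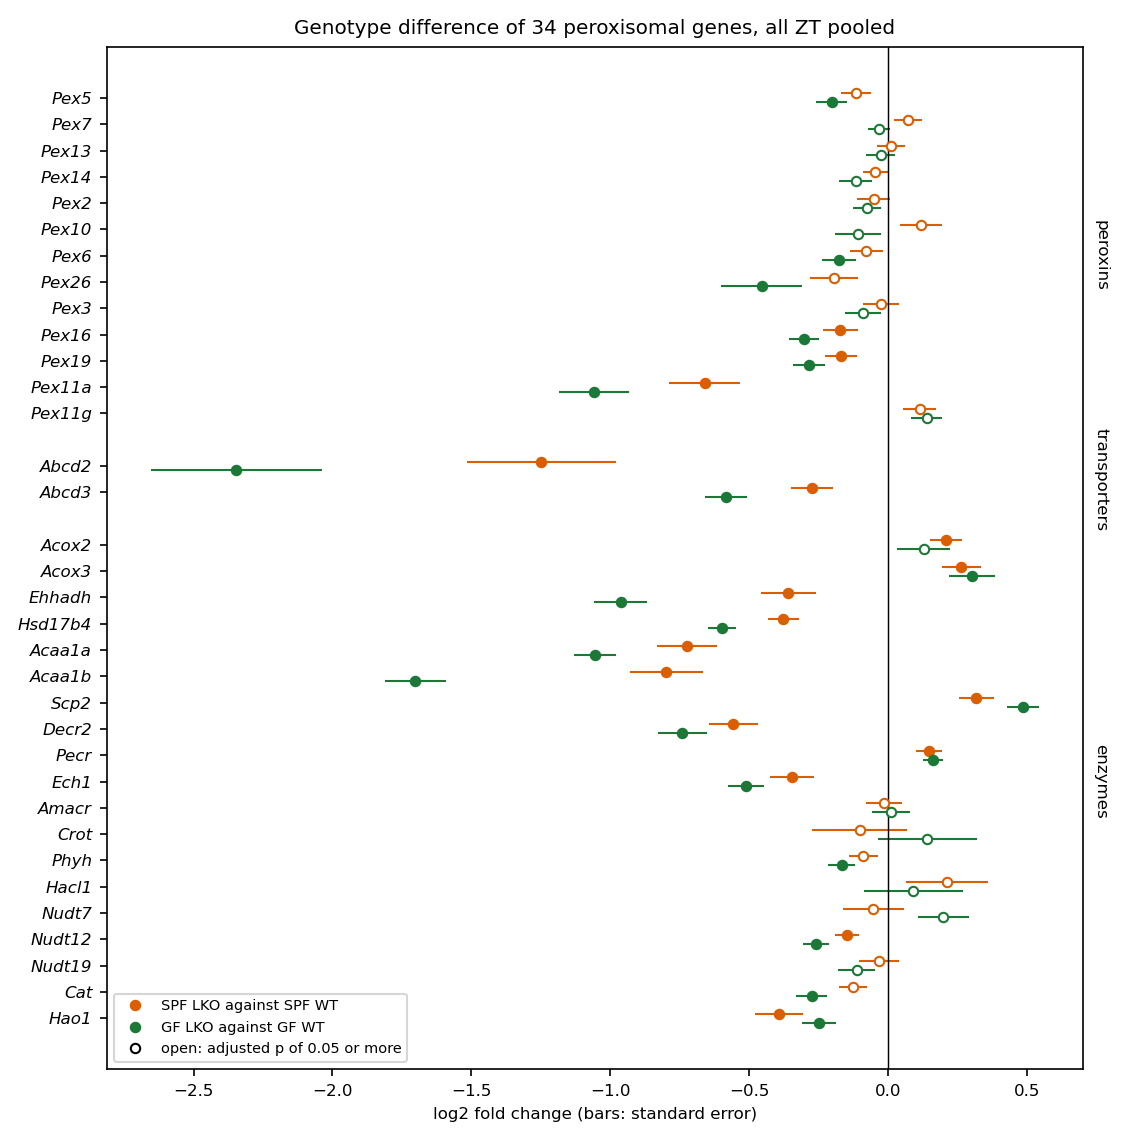
Log2 fold change of LKO against WT mice for the 34 genes tested, with all ZT pooled (points, bars are standard errors; n = 18 livers per group), in SPF and GF mice, with filled points for an adjusted p under 0.05. Abcd2, Acaa1b, Acaa1a, Pex11a and Ehhadh lie furthest to the left in GF mice, between -2.35 and -0.96, and Scp2 furthest to the right (0.49).

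**Figure D2:**
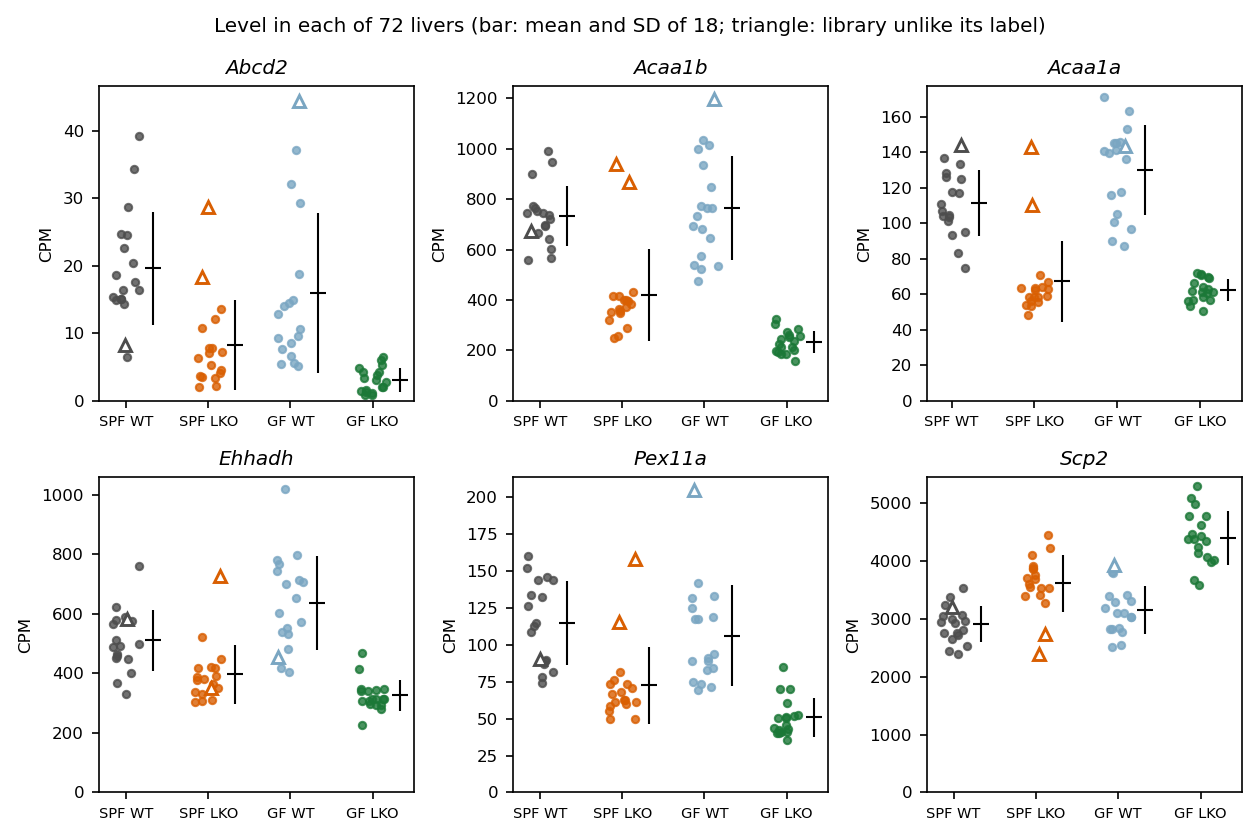
Level (CPM) of 6 genes in each of the 72 livers by group, with the mean and SD of 18 livers beside the points and triangles for the 4 libraries unlike their labels. For Acaa1b the GF WT livers (476 to 1197 CPM) lie above all GF LKO livers (159.7 to 326 CPM), and 2 of the 18 SPF LKO livers lie among the SPF WT livers. The share of all genes separated like this is not reported here.

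Whether the genotype difference itself depended on microbial status was tested as an interaction over all 72 libraries. It passed for 2 members, both enzymes, both below 0, 5.88% of those tested beside 0.438% of 13484 genes (0.319% below 0 and 0.119% above). For Ehhadh the log2 fold change in GF minus that in SPF mice was -0.61 ± 0.14 (adjusted p = 0.0156, edgeR quasi-likelihood test, Benjamini-Hochberg), and for Acaa1b -0.91 ± 0.17 (adjusted p = 0.00115). The group means were 511, 397, 636 and 326 CPM for Ehhadh and 733, 420.4, 764 and 234 CPM for Acaa1b, in the order WT then LKO of SPF and of GF mice. Without the 4 libraries unlike their labels the values were -0.58 and -0.63 and both still passed, but neither passed under every alternative, and 0, 1 and 0 members passed without replicates 1, 2 and 3. Abcd2 had the largest interaction, -1.10 ± 0.41, and did not pass (adjusted p = 0.415, edgeR). Its value was -0.53 without the 4 libraries. The interaction was below 0 for 12 of 13 peroxins, and the one furthest from 0 did not pass (Pex11a -0.41, adjusted p = 0.668, edgeR). Without the 4 libraries it was below 0 for all 13, with Pex11a at -0.14 and Pex26 furthest from 0 at -0.25, and none passed.

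The same genes were then compared between genotypes at each ZT, with 3 mice per group. In GF mice 9, 11, 11, 7, 11 and 11 of the 34 genes passed at ZT2, 6, 10, 14, 18 and 22, beside 4.21%, 11.7%, 13.1%, 6.1%, 8.43% and 4.44% of all genes tested. Those lower in LKO mice numbered 6, 11, 7, 6, 11 and 10 beside 1.92%, 6.07%, 6.79%, 3.18%, 4.28% and 2.5% of all genes, and those higher 3, 0, 4, 1, 0 and 1 beside 2.29%, 5.59%, 6.33%, 2.93%, 4.16% and 1.94%. Acaa1a, Acaa1b and Decr2 were called lower at all 6 times in GF mice, Abcd3, Ehhadh and Hsd17b4 at 5, and Abcd2 and Pex11a at 4. Peroxins other than Pex11a passed at 1 time (Pex5, Pex19) or at 2 (Pex16, Pex26), of which ZT18 held Pex5, Pex16 and Pex19. Acaa1b fell by 1.30 at ZT2 and by 1.99 at ZT18 on the log2 scale, and Ehhadh by 0.70 at ZT2 and by 1.5 at ZT18.

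In SPF mice 5, 3, 12, 0, 0 and 9 genes passed at the same times, beside 6.89%, 7.26%, 11.9%, 0.0%, 0.015% and 3.31% of all genes. The lower ones numbered 4, 3, 9, 0, 0 and 8 beside 3.24%, 3.39%, 6.05%, 0.0%, 0.015% and 1.81%, and the higher ones 1, 0, 3, 0, 0 and 1 beside 3.65%, 3.87%, 5.88%, 0.0%, 0.0% and 1.5%. Acaa1a and Decr2 were called lower at 4 of 6 times, and Acaa1b and Pex11a at 3. At ZT14 and ZT18, where edgeR called none, 4 and 4 members were under 0.05 before adjustment, while 1 was called at each by DESeq2. The shares of all genes that go with these counts are not reported here, so no difference is read from them. ZT14 and ZT18 are the times of the 2 SPF LKO libraries unlike their labels. At ZT14 the SPF LKO mice had 321, 869.9 and 256 CPM of Acaa1b against 745, 774 and 675 CPM in SPF WT mice, and at ZT18 939, 291 and 399.7 CPM against 698, 993 and 755 CPM. Without SPF LKO ZT14 replicate 2, 9 genes passed at ZT14, and without SPF LKO ZT18 replicate 1, 7 passed at ZT18. The shares of all genes called in those runs are not reported here. SPF WT ZT14 replicate 3, also unlike its label, was part of the ZT14 comparison too.

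Other counts at single times also rested on single libraries. In SPF mice the 5 calls at ZT2 became 3 without SPF WT replicate 3 or SPF LKO replicate 2, and the 3 at ZT6 became 1 without SPF WT replicate 1 or SPF LKO replicate 2 and 6 without GF WT replicate 3, a library of the same fit. The 12 at ZT10 became 5, 6 and 7 without SPF LKO replicates 1, 2 and 3 and 6 without SPF WT replicate 3, and the 9 at ZT22 became 5 without SPF LKO replicate 3. In GF mice the 9 calls at ZT2 became 5 without GF LKO replicate 2 or 3, and the 7 at ZT14 fell to between 1 and 3 without any 1 of its 6 libraries. The plot of calls by ZT shows the counts by class.

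**Figure D3:**
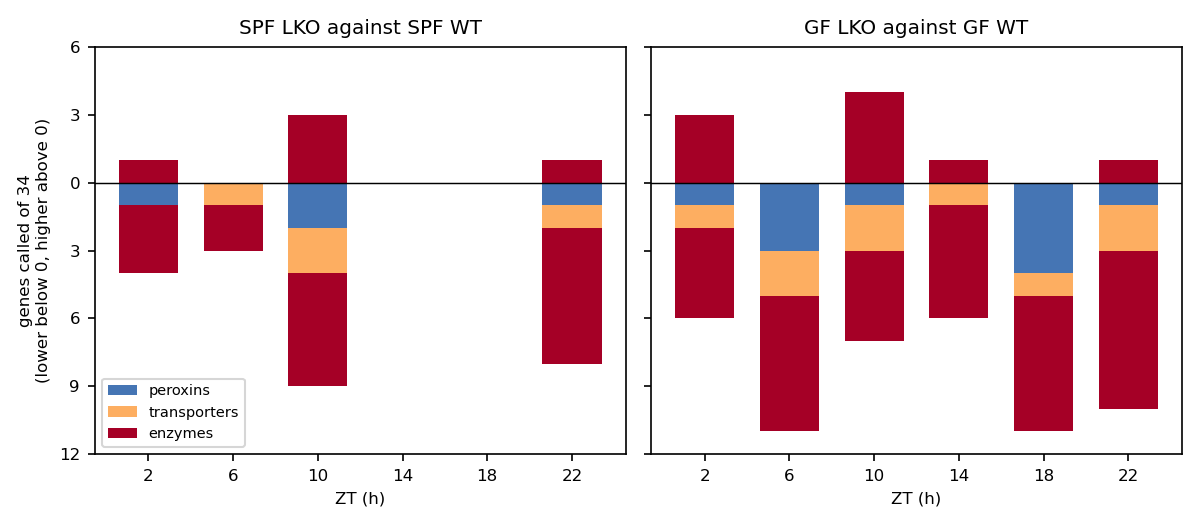
Number of the 34 genes called lower (bars below 0) or higher (bars above 0) in LKO than in WT mice at each ZT (n = 3 mice per group), stacked by class, for SPF mice at the left and GF mice at the right. Enzymes, 19 of the 34 genes, make up most calls at each time with calls. In GF mice they make up 6 of 11 at ZT6 and at ZT18. SPF mice have no calls at ZT14 and ZT18. There 9 and 7 genes passed once SPF LKO ZT14 replicate 2 or ZT18 replicate 1 was left out. The shares of all genes called in those runs are not reported here.

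The comparisons between GF and SPF mice used the same libraries as the genotype comparisons, so their values are given side by side and no agreement between them is read. In WT mice 11 of 34 genes passed and all 11 were higher in GF mice, 32.4% beside 31.8% of all 12776 genes tested (14.2% higher and 17.7% lower; edgeR). They were 6 enzymes, Abcd3 and the peroxins Pex11g, Pex2, Pex16 and Pex19. Median log2 fold changes were 0.13 for enzymes and 0.10 for peroxins beside -0.02 for all genes. Of 8 hepatocyte markers 7 were also higher in GF WT mice, Alb by 0.37 and Serpina1a by 0.45 on the log2 scale, and the part of this shift in the members' values was not tested.

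Phyh ranged from 2144 to 3108 CPM (median 2631) in SPF WT and from 2614 to 3853 CPM (median 3278) in GF WT livers, with means at ZT2 to ZT22 of 2311, 2406, 2754, 2791, 2637 and 2588 CPM and 2955, 3029, 3160.1, 3509, 3612 and 3221 CPM. It was higher in GF mice at all 6 times, by 0.32 ± 0.05 on the log2 scale (adjusted p = 3.05e-05, edgeR). Pecr ranged from 181 to 254 CPM (median 203) in SPF WT and from 219 to 263 CPM (median 248) in GF WT livers, with means of 188, 202, 230.2, 211, 202 and 205 CPM and 247, 243, 228, 243, 254 and 249 CPM and a log2 fold change of 0.23 ± 0.04. These 2 of the 11 were called under every alternative, and 8, 2 and 5 genes passed without replicates 1, 2 and 3. Hao1, which oxidizes glycolate to glyoxylate, ranged from 346 to 679 CPM (median 429.6) in SPF WT and from 468 to 667 CPM (median 554) in GF WT livers, with means of 397, 391, 527, 510.1, 498 and 397 CPM and 553, 612, 502, 553, 562 and 553 CPM. It rose by 0.28 on the log2 scale, Ehhadh by 0.30 and Abcd3 by 0.24, with overlapping groups. For Abcd3 the 6 means were 873, 879.5, 1058, 946, 1202 and 1219 CPM in SPF WT and 1136, 1151, 1024, 1107, 1564 and 1393 CPM in GF WT mice, and for Ehhadh in SPF WT mice 523, 418, 407, 536, 568 and 613 CPM. Ech1 no longer passed without the 2 WT libraries unlike their labels, and Acaa1a then did (0.22).

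In LKO mice 6 genes were lower and 8 higher in GF than in SPF, 41.2% beside 36.4% of all 13010 genes tested (18.4% lower and 18.1% higher). The lower ones were Abcd2, Acaa1b, Pex11a, Ehhadh, Hsd17b4 and Pex5, and the higher ones Hao1, Nudt7, Scp2, Pex11g, Pecr, Phyh, Pex2 and Amacr. Median log2 fold changes were 0.06 for enzymes and 0.01 for peroxins beside -0.02 for all genes. Abcd2 fell by 1.4 on the log2 scale (adjusted p = 0.000543, edgeR) from a median of 6.77 to 2.96 CPM, Acaa1b by 0.85 from a median of 379 to 231 CPM, and Pex11a by 0.52. Without the 2 SPF LKO libraries unlike their labels these values were -1.03, -0.62 and -0.35, and Pex5 and Amacr no longer passed. Abcd3 (-0.06) and Cat (-0.01) did not pass.

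Hao1 ranged from 252 to 444 CPM (median 329) in SPF LKO and from 357 to 595 CPM (median 457) in GF LKO livers, with means of 286, 292, 372, 433, 376 and 308 CPM and 520.0, 459, 410.2, 461, 430.1 and 523 CPM over the 6 times. Its log2 fold change was 0.43 ± 0.08 (adjusted p = 4.69e-05, edgeR). The CoA diphosphatase Nudt7 ranged from 627 to 1190.4 CPM (median 830.4) in SPF LKO and from 847 to 1617 CPM (median 1141) in GF LKO livers, with means of 768, 753, 1062, 1005, 788 and 829 CPM and 1356, 1047, 951, 1145, 1255 and 1157 CPM. It rose by 0.40 on the log2 scale, with the mean at ZT10 as the exception. Of 8 hepatocyte markers 6 were higher and Alb was lower in GF LKO than in SPF LKO mice.

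**Figure D4:**
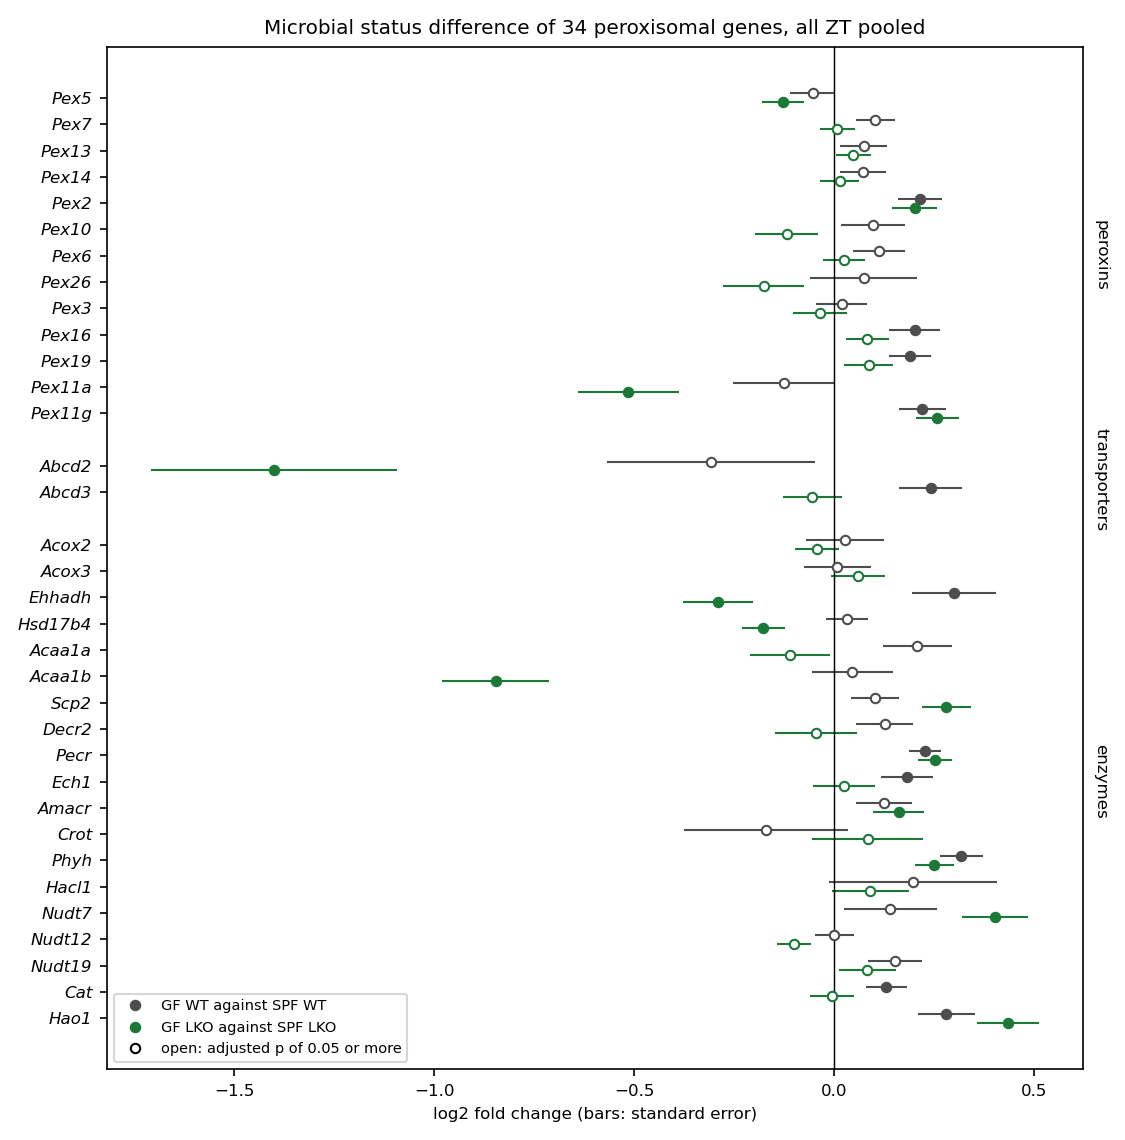
Log2 fold change of GF against SPF mice for the 34 genes with all ZT pooled (points, bars are standard errors; n = 18 livers per group), in WT and LKO mice, with filled points for an adjusted p under 0.05. All filled points of WT mice lie right of 0, up to 0.32 for Phyh, whereas in LKO mice Abcd2 (-1.4), Acaa1b (-0.85) and Pex11a (-0.52) lie furthest left and Hao1 (0.43) furthest right.

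Within each group, variation over the 6 ZT was tested with ZT as a factor. It passed for 3 genes in SPF WT, 2 in SPF LKO, 9 in GF WT and 14 in GF LKO mice, beside 7.06%, 5.3%, 13.6% and 26.7% of all genes tested. The counts in SPF mice depended on the method (3 to 14 in SPF WT, 1 to 11 in SPF LKO). Leaving out 1 replicate number gave 3 to 11 genes in GF WT and 4 to 9 in GF LKO mice. Without SPF WT ZT14 replicate 3 the 3 genes of SPF WT mice became 6. The counts were not compared between groups by a test. In SPF WT mice the genes were Crot, Hacl1 and Abcd3, in SPF LKO mice Amacr and Hao1. In GF WT mice 1 of the 9 was a peroxin (Pex26), and in GF LKO mice 6 of the 14 (Pex2, Pex26, Pex3, Pex16, Pex19 and Pex11a). Of the 14 genes in GF LKO mice 6 had their highest mean at ZT10 (Pex3, Pex16, Pex19, Pex11a, Abcd2 and Decr2). The share of all varying genes highest at that time is not reported here.

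Pex26 peaked at ZT10 in GF WT mice, with values of 41.1, 42.8 and 34.3 CPM against 13.4, 18.2 and 14.6 CPM at ZT2, and its 6 means were 15.4, 27.97, 39.4, 34.2, 26.9 and 19.8 CPM. In GF LKO mice it was highest at ZT14 (31.8, 29.1 and 28.2 CPM) and lowest at ZT22 (16.7, 14.7 and 14.4 CPM), with means of 16.1, 16.3, 22.5, 29.7, 19.4 and 15.2 CPM. The highest mean was 2.57 and 1.95 times the lowest (adjusted p = 0.00369 and 4.08e-05, edgeR). Abcd2 had ratios of 4.53 in GF WT and 4.13 in GF LKO mice, at a level 3.12 CPM on average in the latter. Decr2 in GF LKO mice had means of 150.1, 174, 219, 193, 153 and 126 CPM, a ratio of 1.74 (adjusted p = 0.000324, edgeR). In SPF LKO mice the racemase Amacr, which prepares branched chains for oxidation, had means of 147, 162, 135, 115, 125 and 122 CPM (ratio 1.4), and Hao1 had 444, 424 and 429.7 CPM at ZT14 against 291, 315 and 252 CPM at ZT2 (ratio 1.51).

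Crot and Hacl1 did not pass in the pooled genotype comparisons but passed at single times, Crot in both directions. Crot, the carnitine octanoyltransferase that exports shortened chains (chr5:8966033-8997324), had 1923, 1328 and 1728 CPM at ZT2 and 478, 449 and 618 CPM at ZT14 in SPF WT mice, and 1714, 1048 and 1427 CPM and 519, 442 and 367 CPM in GF WT mice. In GF LKO mice it had 1167, 1446 and 1502 CPM at ZT6, its highest time, and 603, 700.4 and 544 CPM at ZT18, its lowest. The highest mean thus stood at ZT2 in both WT groups and at ZT6 in both LKO groups. Its 6 means were 1659.8, 1082, 696, 515, 770.1 and 1338 CPM in SPF WT, 1088, 1253, 1111, 699, 733 and 740.1 CPM in SPF LKO, 1396, 1053, 654, 443, 658 and 1225 CPM in GF WT and 1098, 1372, 1281, 850.4, 616 and 761 CPM in GF LKO mice. The ratio of highest to lowest mean was 3.22, 1.79, 3.15 and 2.23 in that order, and the test of ZT passed in all but SPF LKO mice (adjusted p = 0.0693, edgeR).

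Compared by time, in GF mice Crot was higher in LKO livers at ZT10 (log2 fold change 0.97) and ZT14 (0.94) and lower at ZT22 (-0.69), and in SPF mice higher at ZT10 (0.68) and lower at ZT22 (-0.85). The pooled fold changes were -0.10 ± 0.17 in SPF and 0.14 ± 0.18 in GF mice and did not pass. The genotype by ZT interaction passed in GF mice (adjusted p = 0.000983, edgeR) and was 0.0557 in SPF mice.

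Hacl1, the hydroxyacyl-CoA lyase of alpha-oxidation (chr14:31598730-31641286), had 33.9, 30.8 and 28.4 CPM at ZT10 and 78.6, 94.7 and 92.5 CPM at ZT22 in SPF WT mice. In GF WT mice it had 18.3, 24.5 and 33.5 CPM at ZT10 and 86.8, 129.9 and 95.05 CPM at ZT18. The corresponding LKO values at ZT10 were 71.8, 50.6 and 55.97 CPM in SPF and 52.8, 41.03 and 58.2 CPM in GF mice, above all 3 WT values in each case. The share of all genes so separated is not reported here. The 6 means of Hacl1 were 54.1, 38.2, 31.1, 42.8, 77.4 and 88.6 CPM in SPF WT, 78.5, 56.5, 59.5, 51.01, 66.7 and 71.5 CPM in SPF LKO, 64.3, 44.2, 25.4, 48.9, 104 and 98.5 CPM in GF WT and 73.4, 63.4, 50.7, 59.5, 76.1 and 86.8 CPM in GF LKO mice. The ratio of highest to lowest mean was 2.85 in SPF WT, 1.54 in SPF LKO, 4.08 in GF WT and 1.71 in GF LKO mice. Hacl1 was higher in LKO mice at ZT10 by 0.94 in SPF and 0.99 in GF mice on the log2 scale, and at ZT2 by 0.54 in SPF mice.

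The genotype by ZT interaction passed for Hacl1 in GF (adjusted p = 0.00534, edgeR) and, narrowly, in SPF mice (adjusted p = 0.0489), for Crot in GF mice and for Abcd3 in GF mice (adjusted p = 0.0374). These were 3 of 34 genes in GF mice beside 3.48% of all 13806 tested, and 1 of 34 in SPF mice beside 0.305% of 14442. In GF mice 0, 0 and 2 genes passed without replicates 1, 2 and 3. In SPF mice RLE size factors left no call by edgeR, where DESeq2 made 2, and leaving out SPF LKO ZT14 replicate 2 or SPF WT ZT14 replicate 3 gave 2, and all 3 libraries unlike their labels 3. For Abcd3 the 6 GF LKO means were 959.8, 829, 743, 683, 755 and 945 CPM and the GF WT values at ZT18 were 1473, 1731 and 1487 CPM against 791, 821 and 655 CPM in GF LKO mice, the time of its largest difference (-1.03 on the log2 scale). The plot of courses over ZT shows the 3 genes.

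**Figure D5:**
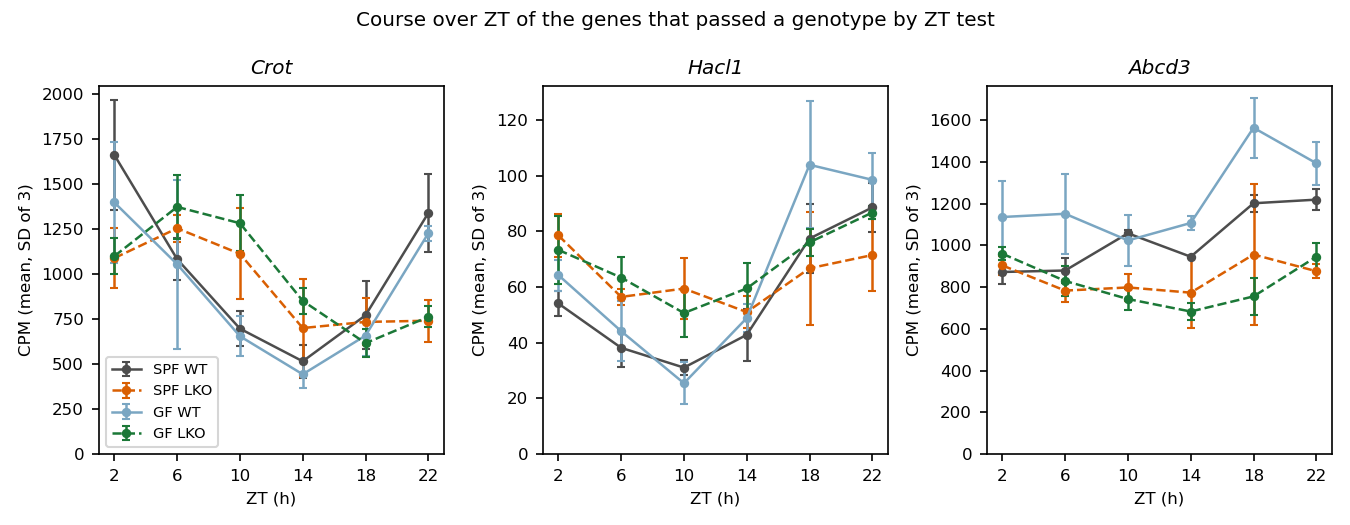
Mean level (CPM, bars are the SD of 3 mice) over ZT (hours) of Crot, Hacl1 and Abcd3 in the 4 groups, with solid lines for WT and dashed lines for LKO mice. Crot peaks at ZT2 in both WT groups and at ZT6 in both LKO groups, Hacl1 is lowest at ZT10 in both WT groups and in GF LKO mice, and Abcd3 lies highest at ZT18 in GF WT mice (mean 1564 CPM).

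Of 43 genes of the peroxisome outside the set, 12 were lower and 5 higher of 41 tested in SPF LKO against SPF WT mice, and 16 lower and 5 higher of 40 tested in GF LKO against GF WT mice. Of all genes 11.5% were called lower and 11.6% higher in SPF mice, and 15.2% lower and 15.6% higher in GF mice. Among 19 other enzymes and transporters 7 were lower and 2 higher in SPF and 8 lower and 2 higher in GF mice. Crat (carnitine acetyltransferase) fell by 0.64 and by 0.98 on the log2 scale and Eci2 by 0.54 and by 0.72, whereas Pxmp4 rose by 0.66 and 0.62. Of 6 genes of amino acid, purine and polyamine oxidation, 2 were lower and 1 higher in SPF and 3 lower and 1 higher in GF mice. Uox (urate oxidase) changed by -0.66 and -0.85 and Agxt by 0.80 and 1.04. Of 6 redox and NADPH genes 2 were lower in SPF mice, and 3 were lower and 1 higher in GF mice, Ephx2 changing by -0.41 and -0.71.

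Of 3 fission genes shared with mitochondria, Mff was lower (-0.18 and -0.19) and Dnm1l higher (0.21 and 0.27) in LKO mice. Of the ether lipid genes Gnpat rose in SPF LKO mice (0.15), and Far2 was lower in GF than in SPF mice of both genotypes (-0.87 in WT and -0.91 in LKO mice).

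PPARA itself and its targets outside the peroxisome were measured in the same livers. Ppara fell by 0.67 in SPF LKO and by 0.80 in GF LKO mice on the log2 scale, Ppargc1b by 0.68 and by 0.56, and Med1 by 0.18 in GF mice. Ppara had its highest mean at ZT14 in SPF WT (135 CPM, against 85.5 CPM at ZT22) and at ZT10 in GF WT mice (146 CPM, against 70.4 CPM at ZT2). Of 18 PPARA targets outside the peroxisome 15 were lower and 1 higher in LKO mice, both in SPF and in GF mice, beside 23.1% and 30.8% of all genes called, with medians of -0.40 and -0.53. Cyp4a10 (a fatty acid omega-hydroxylase) changed by -1.55 and -2.67, Cyp4a14 by -1.66 and -2.63, Acot1 by -0.93 and -1.65, and Pdk4, the exception, by 1.56 and 0.96. In WT mice 4 of the 18 were higher in GF than in SPF, beside 14.2% of all genes. In LKO mice 0 of the 18 were called between GF and SPF (median -0.04), beside 36.4% of all genes. The genotype by microbiota interaction passed for 0 of the 18, beside 0.438% of all genes. These lists were drawn up with earlier results of the data known and lend no independent support.

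Promoter windows from RefSeq (GRCm38.p6, 250 bases before to 50 after the start) were found for 29 of the 35 genes, with 35 windows, and searched on both strands. The E-box CACGTG, bound by Bmal1 with Clock or Npas2, was in no member's window and in 7.15% of all 32851 windows. The D-box TTATGTAA and the direct repeat DR1, the form of element PPARA binds with RXRA, were also in none, and in 0.938% and 0.381% of all windows. The single site AGGTCA, which the direct repeat can contain and the longer TAGGTCA (2.606% of windows, Scp2 alone among members) always contains, was in the windows of Cat, Pex11g, Phyh and Scp2 and in 16.255% of all windows. The stretches around it are shown for the 3 genes that hold it upstream of the start their window was taken from, which for Scp2 lies inside the annotated gene, and give one called lower in GF LKO mice (Cat), one called higher in both genotype comparisons (Scp2) and one called in neither (Pex11g), with AGGTCA in capitals, 5′ to 3′ along the gene:
Cat (chr2:103485325-103485384, minus strand): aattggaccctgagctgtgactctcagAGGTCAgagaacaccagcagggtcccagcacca
Scp2 (chr4:108118624-108118683, minus strand): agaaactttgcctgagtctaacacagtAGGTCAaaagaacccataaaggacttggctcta
Pex11g (chr8:3467789-3467848, minus strand): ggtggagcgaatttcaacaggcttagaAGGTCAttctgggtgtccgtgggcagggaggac
A match describes these letters, and their absence from a window of this length says nothing of binding elsewhere.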

How the data were processed

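Liver RNA was sequenced in 72 mice, 3 per group and ZT. The authors aligned reads of 50 bases with STAR 2.6.1b and deposited raw read counts per gene from featureCounts 2.0.0 with Ensembl 97 on GRCm38. Strand was ignored, and reads that fit several places or genes were not counted, which lowers genes with near copies. Totals of 17369927 to 22076113 counts per library set the precision of low genes.

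Groups came from the sample labels. Genes were filtered with filterByExpr and scaled by TMM, and edgeR 4.0.16 in R 4.3.3 was fitted over all genes that passed: pairs of groups on 36 libraries without covariates, the interaction on 72, each ZT on 12 libraries with 4 group means, ZT as a factor on 18, and genotype by ZT on 36. Quasi-likelihood p-values were adjusted by Benjamini-Hochberg over all genes, with calls under 0.05. Replicates are separate mice.

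The members, gene lists and tests were chosen with earlier results of these data known. All 35 members were accounted for, and those given with every ZT were the 5 called members with the largest log2 fold change of each pooled comparison, the 4 with the largest ratio over ZT of each group, and those passing an interaction. From each other list at most 4 called genes with the largest change were to be named, some of which are not reported here. Far2, Med1 and the marker genes were named after their values were seen.

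Alternatives were DESeq2 1.42.0, RLE size factors, no filter, ZT as a covariate, the replicate number as a block, 24 h cosine and sine terms, and leaving out libraries. On simulated counts with 200 genes changed 2-fold, the steps recovered 200 in the pooled SPF genotype comparison (13159 genes), 196 for the interaction (13484), 143 at ZT14 in SPF mice (13317), 189 for ZT in GF LKO mice (13494) and 167 for genotype by ZT in GF mice (13806). In the same order 3, 5, 5, 8 and 7 other genes were called. Those figures are for edgeR. DESeq2 recovered 200, 196, 170, 192 and 179 and called 12, 11, 17, 64 and 34 other genes. Changed genes had mean counts over 50, and smaller changes were not simulated. Counts were drawn with the spread among mice of 1 group and ZT, without other variation over ZT. The pooled and interaction figures therefore leave out the variation between ZT that those fits carried. Windows of 50 bases were counted against GENCODE vM21 transcripts with Python 3.11.15.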

Additional observations from a re-analysis of the deposited data

Results flagged for a closer look

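The genotype difference itself differed between GF and SPF mice for 2 enzymes in the test of the interaction over all 72 libraries. The log2 fold change of LKO against WT in GF minus that in SPF mice was -0.61 for Ehhadh and -0.91 for Acaa1b. Leaving out all libraries of replicate 1 or of replicate 3 ended both calls, and leaving out replicate 2 ended that of Ehhadh.

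The genotype difference itself differed between ZT for 3 genes, tested as the genotype by ZT interaction with edgeR. Adjusted p-values were 0.000983 for Crot, 0.00534 for Hacl1 and 0.0374 for Abcd3 in GF mice, and 0.0489 for Hacl1 in SPF mice. Leaving out all libraries of replicate 1 or of replicate 2 ended every call in GF mice. RLE size factors ended the call in SPF mice.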

How the results depend on the processing

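In the pooled comparisons and the interaction no called gene changed direction under the alternatives run. There, values for called genes kept the call in 615 cases and lost it in 79, values for genes not called gained one in 28, and RLE size factors moved the median of all genes by at most 0.0251 (log2). DESeq2 and no filter each gave 10 calls at ZT2 and 5 each at ZT6 in SPF mice, 1 and 2 at ZT14, and 1 and 3 at ZT18. For variation over ZT, DESeq2, no filter and the cosine gave 11, 10 and 14 genes in SPF WT mice and 7, 11 and 6 in SPF LKO mice, where the replicate block gave 1 and leaving out the 2 libraries unlike their labels 4. For genotype by ZT, DESeq2, no filter and the cosine gave 2, 5 and 2 genes in SPF and 8, 10 and 6 in GF mice, while RLE size factors gave 0, the replicate block 2 and leaving out 3 libraries 3 in SPF mice. The cause of these differences was not tested, and the shares of all genes called under these alternatives are not reported here. On simulated counts DESeq2 called 64 unchanged genes for ZT in GF LKO mice, where edgeR called 8. For genotype by ZT in GF mice it called 34, where edgeR called 7.

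Leaving out replicates gave 10 to 19 calls for genotype in SPF and 17 to 21 in GF mice, 2 to 12 for microbiota in WT and 10 to 13 in LKO mice, and 0 to 2 for the interaction. By ZT from 2 to 22 the ranges were 3 to 7, 1 to 6, 5 to 12, 0 to 9, 0 to 7 and 5 to 9 in SPF mice and 5 to 9, 9 to 13, 9 to 13, 1 to 9, 8 to 14 and 9 to 12 in GF mice. For variation over ZT they were 1 to 6 in SPF WT, 0 to 2 in SPF LKO, 3 to 12 in GF WT and 4 to 9 in GF LKO mice, and for genotype by ZT 0 to 2 in SPF and 0 to 4 in GF mice.

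Replicate numbers did not pair the mice: correlations of deviations exceeded 0.1 in 2 to 5 of 18 pairs per comparison. With ZT and replicate number as a block, 18 and 22 genes passed for genotype in SPF and GF mice, 13 and 14 for microbiota in WT and LKO mice, and 2 for the interaction. With 3 mice per group and ZT, small differences at single times were not detectable.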
